A study of Saccharomyces cerevisiae with 3 samples.

Results

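The features described here are the 7 on a budding yeast array that carry the name of a gene transcribed by RNA polymerase III (Pol III) but not of a tRNA gene. They were found by name among 6399 features and are SCR1, RPR1, SNR6, SNR52, RDN5-1, RDN5-2 and RDN5-3. All 7 had a value in every condition. The study followed Maf1, the repressor of Pol III, on crosslinked chromatin of Saccharomyces cerevisiae cells that carried a myc-tagged Maf1 and grew in the rich medium YPD to an optical density (OD600) of 0.6. Chromatin was immunodepleted of Maf1, its DNA was labelled with Cy5, and it was hybridized on intergenic arrays against input DNA labelled with Cy3. The 3 groups, each with 1 deposited column that averages 3 replicate arrays, were cells without treatment, cells after 30 min and cells after 120 min of rapamycin at 0.2 ng/ul. The tag and the depletion were common to all groups, and the labels do not name the strain.

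Rapamycin inhibits the TOR kinase, which couples growth to nutrients, and Maf1 is known to be dephosphorylated and to repress Pol III when that signal is lost. Pol III genes differ in how the polymerase is recruited. The 5S ribosomal RNA genes (RDN5) have internal boxes that the factor TFIIIA reads before TFIIIC and TFIIIB join. The genes SCR1, RPR1 and SNR52 have boxes A and B as tRNA genes do, which TFIIIC binds directly. SCR1 encodes the RNA of the signal recognition particle, which brings secreted proteins to the endoplasmic reticulum. RPR1 encodes the RNA of RNase P, which trims the leaders of precursor tRNAs, and SNR52 a box C/D small nucleolar RNA that guides methylation of ribosomal RNA. In both RPR1 and SNR52 the boxes lie in the leader of the precursor. SNR6 encodes the U6 spliceosomal RNA and combines a TATA box upstream, a box A inside the gene and a box B downstream of it.

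Values are deposited scores minus the median of their column and are given as centred scores, in score units. Neither the base of the logarithm, if one was taken, nor the DNA on top of the ratio is known from the labels. A higher score is therefore not read as more or less Maf1, and with the sign turned every higher score reads as a lower one. Averaged columns leave no spread between arrays, so no difference below has a replicate check or a p-value. As a measure of size, the robust SD of a column (scaled from the median absolute deviation over all features) ran from 0.39 before rapamycin to 0.44 at 30 min and 0.51 at 120 min. Stretches that carry exactly 2 numbered features gave another measure, added after the values had been seen. The median gap between such a pair was 0.34 over 188 pairs before rapamycin, 0.35 over 187 pairs at 30 min and 0.50 over 187 at 120 min. The features of a pair share a name but for its number. The labels do not give their places on the genome, so the pairs were not taken as repeat measurements.

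SCR1 and RPR1 had nearly the same course and reached the highest scores of the 7 after 120 min. The centred score of RPR1 was 0.85 before rapamycin, 0.74 at 30 min and 2.23 at 120 min. That of SCR1 was 0.76, 0.56 and 2.22. Before rapamycin both lay inside the quartile range of the tRNA-named features, which was 0.46 to 1.01 over 245 measured features, and 95 of these scored above RPR1 and 119 above SCR1. After 120 min only 10 tRNA-named features scored above RPR1 and 11 above SCR1, and both lay above the upper quartile of 1.82. Among all features, 22 stood above RPR1 then and 24 above SCR1. The next gene to SCR1 at higher coordinates is a tRNA gene in the reference gene table, so a score there may belong to either gene.

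SNR6 started at the level of the bulk of the array and ended with SCR1 and RPR1. Its centred score was 0.09 before rapamycin, 0.79 at 30 min and 1.92 at 120 min. In untreated cells 2511 features scored above it, among them 230 of 245 with a tRNA name. After 30 min 96.9% of all features lay below it and 71 tRNA-named features above it, and SNR6 was the highest of the 7. After 120 min 98.3% of all features and 80.0% of the tRNA-named ones lay below it.

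The feature named for SNR52, the box C/D RNA gene, did not share the late values of those named for SCR1 and RPR1, which also have boxes A and B. Which side of its gene a feature covers is not known from its name, so this is a difference between features. The centred score of SNR52 was 0.16 before rapamycin, 0.62 at 30 min and 0.29 at 120 min. The middle value was close to the tRNA-named median of 0.62 at that time. After 120 min 235 of 245 tRNA-named features stood above SNR52, and it was the lowest of the 7.

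The 5S-named features scored below most tRNA-named features in every condition. RDN5-1 had centred scores of 0.09 before rapamycin, -0.21 at 30 min and 0.52 at 120 min. RDN5-2 had 0.34, 0.19 and 0.60 in the same order. RDN5-3 had 0.09, 0.01 and 0.30. RDN5-2 was the highest of them in each condition. The range over the 3 was 0.26, 0.41 and 0.30, which exceeded the median gap between paired features of 1 stretch at 30 min only. A range over 3 features tends to be wider than a gap within a pair, so these are unlike measures. The 5S genes are near-identical repeats, so signal at these features may come from any copy, and they count as 1 source rather than as 3. After 120 min 226 to 233 of the 245 tRNA-named features scored above each of them. Among all features they were not low then, with 82.8% below RDN5-1, 85.2% below RDN5-2 and 72.1% below RDN5-3.

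**Figure D1:**
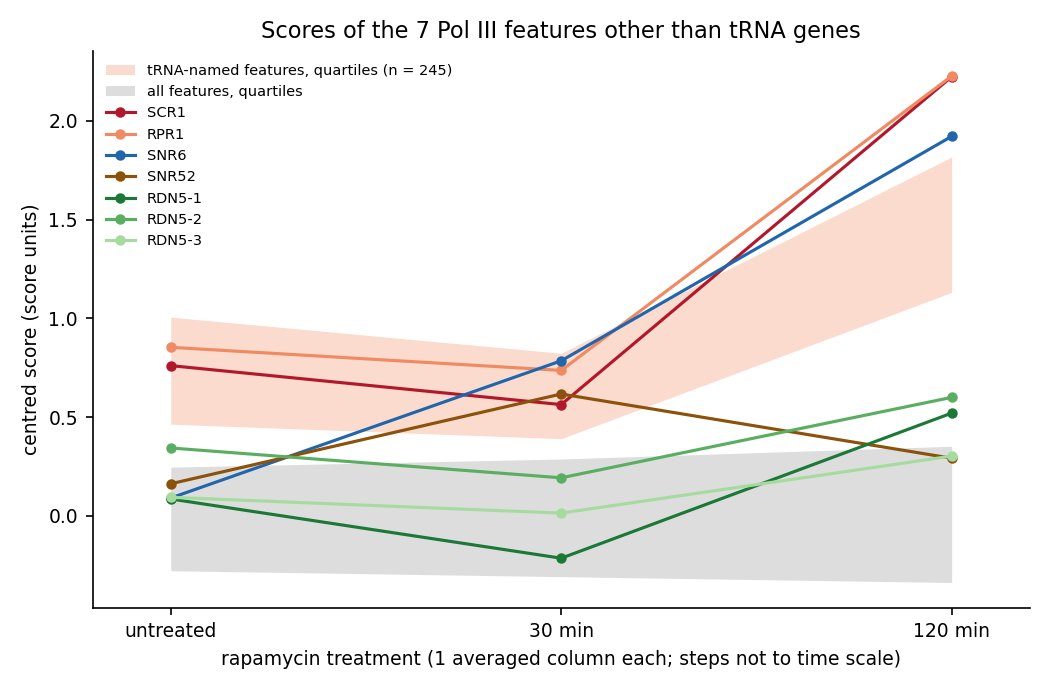
Centred score (score units, vertical axis) of each of the 7 features in the 3 conditions (horizontal axis), 1 averaged column each, joined by lines. Shaded bands give the quartile ranges of 245 tRNA-named features (orange) and of all measured features (grey). SCR1, RPR1 and SNR6 end above the tRNA band, at 2.22, 2.23 and 1.92, while SNR52 and the 5S features end at 0.60 or lower.

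The order of the 7 thus changed between conditions. In untreated cells it ran RPR1, SCR1, RDN5-2, SNR52, RDN5-3, SNR6 and RDN5-1 from high to low. The only step between neighbours in that order above the paired-feature gap of 0.34 was that from SCR1 to RDN5-2, at 0.42. After 30 min the order was SNR6, RPR1, SNR52, SCR1, RDN5-2, RDN5-3 and RDN5-1. The step of 0.37 from SCR1 to RDN5-2 was again the only one above the gap, there 0.35. After 120 min RPR1, SCR1 and SNR6 were followed, after a step of 1.32, by RDN5-2, RDN5-1, RDN5-3 and SNR52. No other step after 120 min exceeded the gap of 0.50. RPR1 and SCR1 differed by 0.003 then, and RDN5-3 and SNR52 by 0.01. Steps between values sorted by size are small by construction, while the gap is a median over unsorted pairs. The comparison of steps with the gap is therefore only a rough guide to size.

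A limit of 3 robust SDs above the column median was used to count features that stood far out. In untreated cells 0 of the 7 passed it, where 1.27% of all measured features did. After 30 min 0 of the 7 passed, against 0.111% of all features. After 120 min RPR1, SCR1 and SNR6 passed, against 4.24% of all features. Among tRNA-named features 116 of 245 passed then, or 47.3%, beside 42.9% of the 7, with the 3 5S features counted separately. None of the 7 lay below the opposite limit in any column, where 1.19%, 0.7% and 1.67% of all features did. The median over the 7 went from 0.16 to 0.56 and 0.60 over the 3 conditions. With the 5S features averaged to 1 value it was 0.17, 0.62 and 1.92. All features together have a median of 0 by centring, and tRNA-named features had 0.76, 0.62 and 1.46. By promoter, the medians after 120 min were 2.22 for SCR1, RPR1 and SNR52 and 0.52 for the 5S features. The first of these medians hides a range from 0.29 to 2.23.

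**Figure D2:**
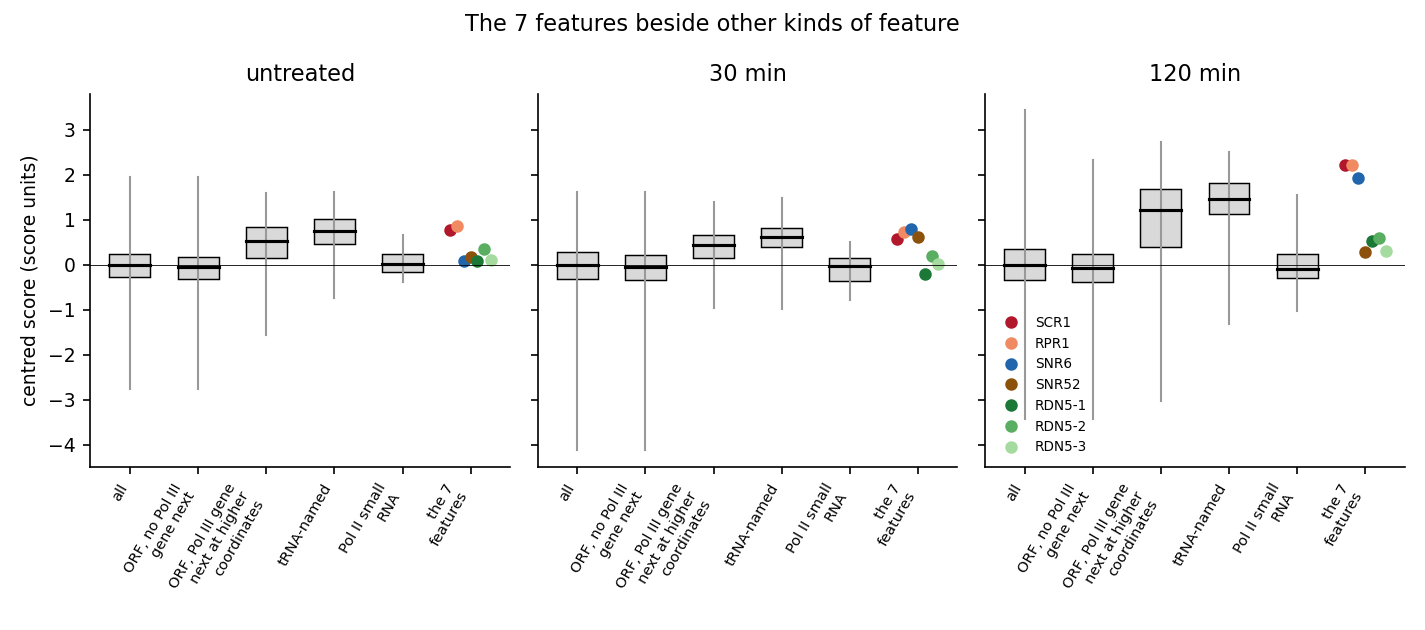
Centred scores (score units, vertical axis) by kind of feature in the 3 conditions. Boxes span the quartiles, thick lines mark the median and thin lines run from the lowest to the highest feature, while coloured points are the 7 features. After 120 min 3 points lie above the upper quartile of the tRNA-named box at 1.82 and 4 lie below its lower quartile of 1.13.

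Between untreated cells and 120 min all 7 features were higher and 0 lower, in a table where 56.1% were higher and 43.9% lower. The direction was not particular to the 7, since 95.5% of the tRNA-named features were higher too. So were 81.9% of the ORF-named features with a Pol III gene next at higher coordinates. The 7 also include the near-identical 5S features. SNR6 differed most, by 1.83, and only 14 of 6278 features differed more. None of the 245 tRNA-named features had a larger difference than SNR6. SCR1 was higher by 1.46, with 37 features and 5 tRNA-named ones above it. RPR1 was higher by 1.37, with 60 features and 14 tRNA-named ones above it. These sizes depended on the scaling of the columns. With columns set to equal spread the differences were 0.93 at SCR1 and 0.83 at RPR1, after quantile normalization 0.64 and 0.52, and at SNR6 1.37 and 1.19. The ranks and limits of these differences were not recomputed for those scalings. The remaining features differed by 0.43 (RDN5-1), 0.26 (RDN5-2), 0.21 (RDN5-3) and 0.13 (SNR52), and each of these was below the median paired-feature gap for this difference, 0.50. SNR6 and SCR1 passed an upper limit of 1.39, the median of all differences plus 3 of their robust SDs, which 0.892% of features passed. RPR1 lay just under that limit, and 0 of the 7 lay below the lower limit of -1.25, where 2.23% of features did.

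**Figure D3:**
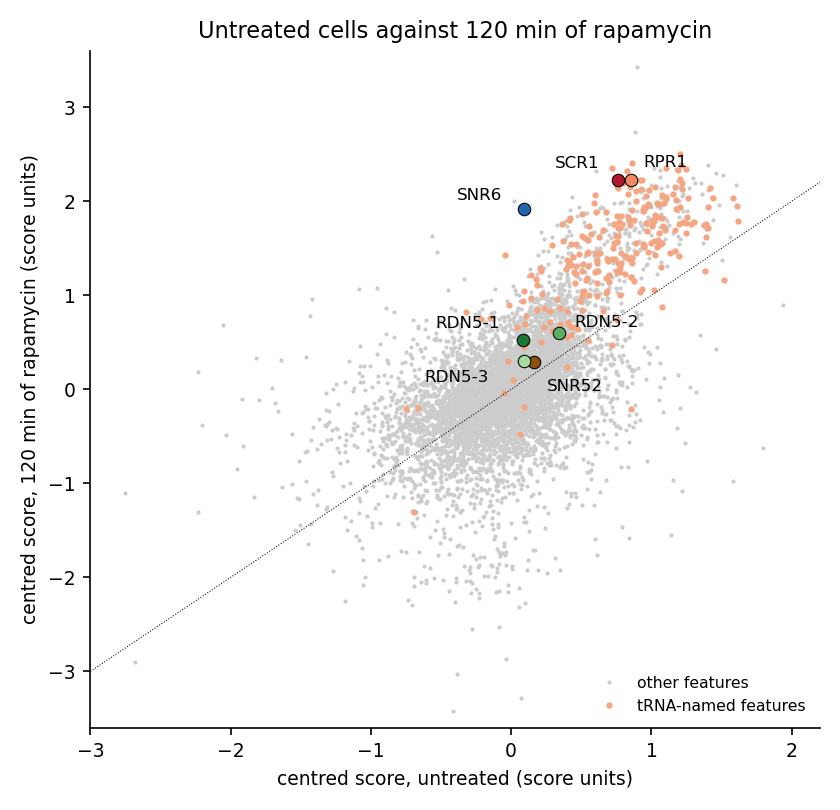
Centred score in untreated cells (horizontal axis) against that after 120 min of rapamycin (vertical axis), both in score units, 1 point a feature. Grey points are features without a tRNA name, orange ones are tRNA-named, and the 7 features are labelled. On the dotted line both scores are equal. SNR6 lies furthest above the line of the 7, at 0.09 and 1.92, and SNR52 lies nearest to it, at 0.16 and 0.29.

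After 30 min the 7 had no common direction against untreated cells, with 2 higher and 5 lower, where 49.5% of all features were higher and 50.5% lower. The 5 include all of the near-identical 5S features. SNR6 was higher by 0.69, and only 3 of 245 tRNA-named features had a larger difference. SNR52 was higher by 0.45, with 9 tRNA-named features above it. The others had negative differences, of -0.30 (RDN5-1), -0.20 (SCR1), -0.15 (RDN5-2), -0.12 (RPR1) and -0.08 (RDN5-3). Such small differences lay inside the median paired-feature gap of 0.43, and only those of SNR6 and SNR52 were above it. The tRNA-named median for this step was -0.14. None of the 7 passed the upper limit of 0.99, which 1.67% of features passed, or the lower one of -0.997, which 1.66% passed. The median over the 7 was -0.12, beside 0.00 over all features.

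From 30 to 120 min 6 of the 7 were higher and 1 was lower, in a table where 56.9% were higher and 43.1% lower. The differences were 1.66 at SCR1, 1.49 at RPR1 and 1.14 at SNR6. SCR1 and RPR1 passed the upper limit of 1.35, which 1.45% of features passed, and 0 of the 7 passed the lower one of -1.21, which 2.31% did. RDN5-1 was higher by 0.73, RDN5-2 by 0.41 and RDN5-3 by 0.29. SNR52 alone was lower, with a difference of -0.33. The difference was above that value at 241 of 245 tRNA-named features and above 0 at 236. These 3 steps share columns, so they are not independent of each other. The tRNA-named median from 30 to 120 min was 0.87. How the differences split over the intervals depended on the scaling. At SNR6 the steps were 0.69 up to 30 min and 1.14 from then on, but 1.03 and 0.16 after quantile normalization. From 30 to 120 min quantile normalization gave 0.90 at SCR1 and 0.53 at RPR1.

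The rule behind these features asks how they stand beside the ORF-named features next to them. The order of genes was taken from the RefSeq gene table, assembly R64, without its coordinates, because the labels name no build for the array. The name of a feature does not say which side of the gene it covers. Over the table, 232 ORF-named features are followed by a Pol III gene on the side of higher coordinates and had a median of 1.22 after 120 min, while the 203 with such a gene on the lower side only had a median of 0.06. Were features to lie on the higher-coordinate side of their gene, those of SCR1, SNR6 and RDN5 would cover the 3′ side, and those of RPR1 and SNR52 the 5′ side, by the strand in the locus tags. For SNR6 the 3′ side is that of box B, and for RPR1 and SNR52 the 5′ side is that of the leader. The placement was not tested at these genes.

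RPR1 stood above its neighbours in every condition. URA3, of uracil synthesis, is the nearest measured ORF-named feature at lower coordinates and had -0.29, -0.565 and 0.43. PXP1, a peroxisomal protein gene and the next gene at higher coordinates, had -0.16, 0.12 and 0.12. The centred score of RPR1 exceeded the mean of both by 1.08 before rapamycin, by 0.96 at 30 min and by 1.95 at 120 min. TIM9, the next gene at lower coordinates, had no feature under its name in the table.

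Beside SCR1, the nearest measured ORF-named feature at higher coordinates was YER138W-A, with centred scores of 0.97, 0.88 and 1.33. SCR1 was below it before rapamycin and at 30 min, with 0.76 and 0.56, and above it at 120 min, with 2.22. Between them lie 3 genes, and the first of them, next to SCR1, is a tRNA gene. The genes adjoining YER138W-A on either side are not Pol III genes.

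SNR6 ended high between neighbours that ended below the column median. REX3, an RNA exonuclease gene at lower coordinates, had -0.39 before rapamycin, 0.34 at 30 min and -3.03 at 120 min. Only 2 of the 6279 measured features scored below REX3 in that last column. YLR108C at higher coordinates had 1.18, 0.14 and -0.42. The centred score of SNR6 was below the mean of both in untreated cells, with a difference of -0.31, and above it by 0.54 after 30 min and by 3.64 after 120 min. The last of these was 2.76 both with columns set to equal spread and after quantile normalization. Its size rests largely on REX3, with which the mean of both neighbours was -1.72 after 120 min. Its sign does not, since SNR6 at 1.92 was also above YLR108C at -0.42. With 2 neighbours on each side the difference in untreated cells was 0.12, and those at 30 and 120 min were 0.89 and 2.91. REX3 is also far from the other ORF-named features with a Pol III gene next at higher coordinates, whose quartiles after 120 min were 0.38 and 1.69, and it was the lowest of these 232.

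SNR52 showed the opposite arrangement, with the high score beside it. GLC7, a protein phosphatase gene at higher coordinates, had 1.07, 0.47 and 2.14, and after 120 min 20 of the tRNA-named features scored above GLC7. It has SNR52 on its lower side and a tRNA gene on its higher side. PMD1, at lower coordinates with SNR52 as its next gene, had 0.05, 0.44 and 0.38, close to the 0.16, 0.62 and 0.29 of SNR52 in each condition. The centred score of SNR52 differed from the mean of PMD1 and GLC7 by -0.40, 0.16 and -0.97. With 2 neighbours on each side the differences were -0.08, 0.42 and -0.37.

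**Figure D4:**
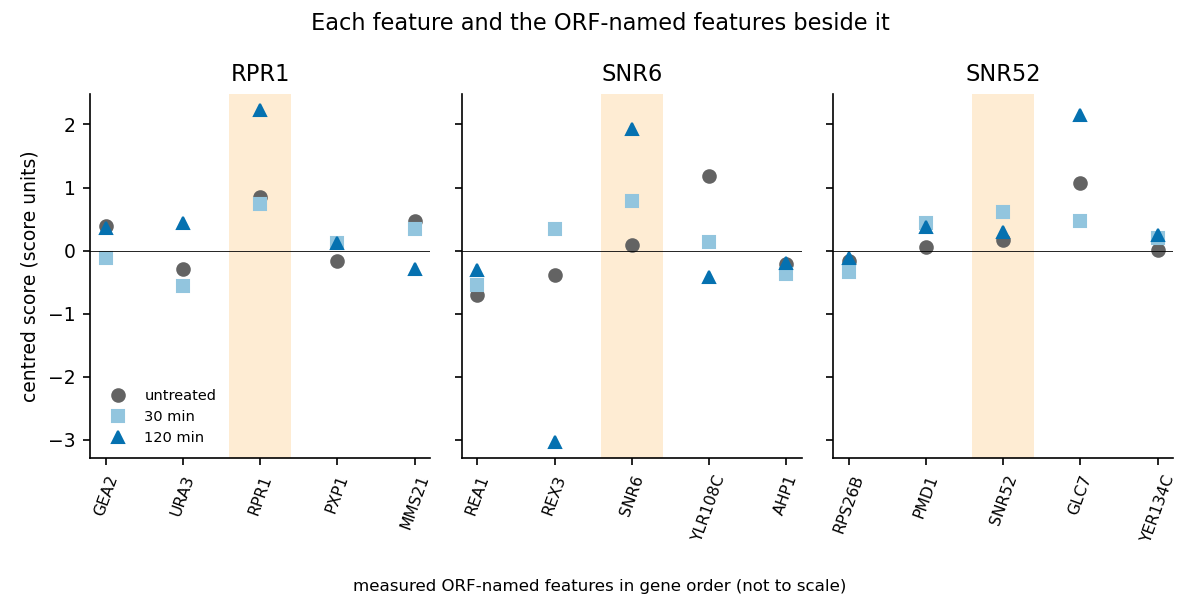
Centred score (score units, vertical axis) of RPR1, SNR6 and SNR52 (shaded) and of the nearest measured ORF-named features, 2 on each side, in gene order (horizontal axis, not to scale). Circles are untreated cells, squares 30 min and triangles 120 min of rapamycin. RPR1 and SNR6 peak between low neighbours after 120 min, at 2.23 and 1.92, while beside SNR52 the peak of 2.14 is at GLC7.

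At the ribosomal DNA, YLR159W and YLR161W, named for ORFs beside 5S genes, scored above the features named for 5S genes, by at least 1.06 after 120 min. The gene table holds 6 5S genes, and RDN5-4, RDN5-5 and RDN5-6 had no feature under their own name. YLR159W, whose next gene at higher coordinates is RDN5-5, had 0.70 before rapamycin, 0.27 at 30 min and 1.76 at 120 min. YLR161W, whose next gene at higher coordinates is RDN5-6, had 0.73, 0.42 and 1.66. Both features were picked after their values had been seen. In untreated cells and after 120 min both lay within the tRNA-named quartile range, and 78 tRNA-named features scored above YLR159W and 94 above YLR161W after 120 min. The lower of these 2 features exceeded the highest 5S-named feature by 0.35 before rapamycin, by 0.08 at 30 min and by 1.06 at 120 min. Of these gaps, those in untreated cells and after 120 min were above the paired-feature gap of 0.34 and 0.50, and that after 30 min was below it. YLR159W and YLR161W lie in repeats of one another, so these 2 features are not independent either.

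Among features that could be placed by the gene table, the ORF-named ones nearest to RDN5-1, RDN5-2 and RDN5-3 were the same for all 3. YLR155C-A, with 0.20, 0.23 and 0.96, and YLR155C-B, with 0.05, 0.03 and 0.03, are not in that table and were not placed. RNH203, of ribonuclease H2, precedes the ribosomal DNA and had 0.84, 0.97 and 1.92, with a tRNA gene next to it. YLR157C-B, a Ty element ORF on the other side, had 0.06, 0.21 and 0.25. The 5S features lay below the mean of RNH203 and YLR157C-B, with differences after 120 min of -0.56 at RDN5-1, -0.48 at RDN5-2 and -0.78 at RDN5-3. That sign rests on RNH203, since all 3 scored above YLR157C-B then. With 2 neighbours on each side the differences after 120 min were -0.02, 0.055 and -0.24, and that of RDN5-2 in untreated cells was 0.08. Several genes lie between, up to 24 on 1 side, so these are neighbours on the array rather than on the chromosome. RDN37-1, the precursor of the large ribosomal RNAs, had 0.84 before rapamycin and was not measured later.

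**Figure D5:**
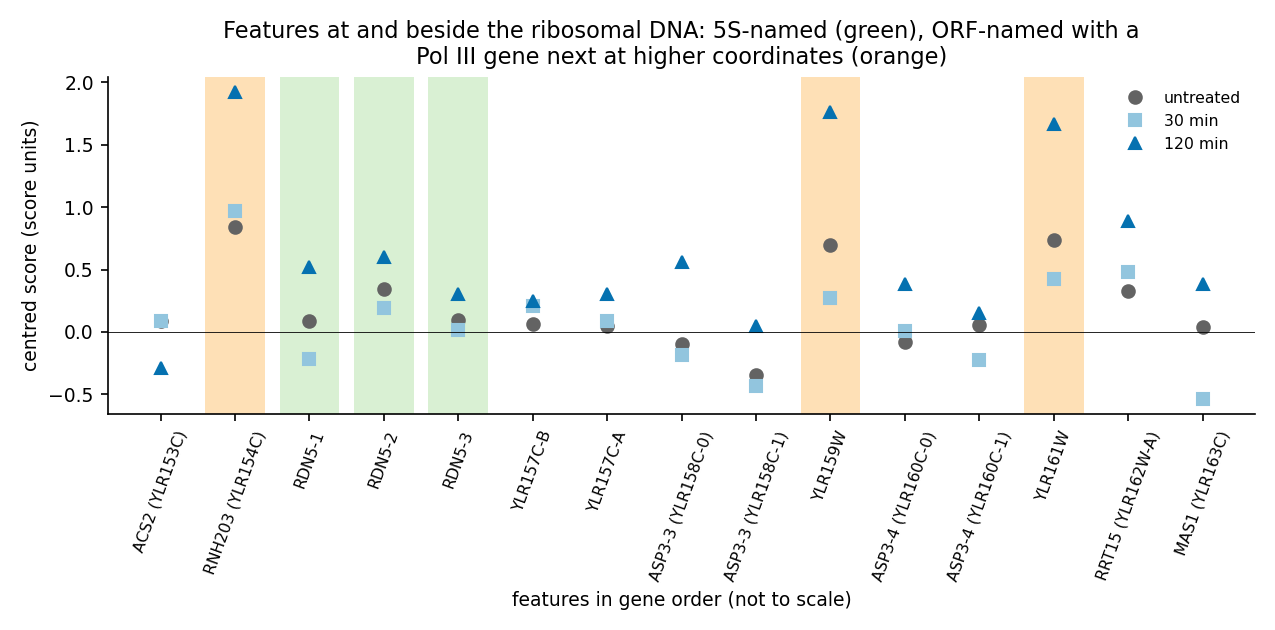
Centred score (score units, vertical axis) of features at and beside the ribosomal DNA in gene order (horizontal axis, not to scale), with circles for untreated cells, squares for 30 min and triangles for 120 min of rapamycin. ORF-named features absent from the gene table are left out. The 3 shaded ORF-named features with a Pol III gene next at higher coordinates reach 1.92, 1.76 and 1.66 after 120 min, while the 5S-named features reach 0.60 at most.

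Small RNA genes of RNA polymerase II served as features of similar genes with another polymerase. Their median over 40 features was 0.03, -0.03 and -0.10 in the 3 conditions. After 120 min 1 of 40 passed the limit of 3 robust SDs, against 4.24% of all features. That feature was SNR53, which had 0.66, 0.45 and 1.54 and has a tRNA gene next at higher coordinates. SNR33, which also has a Pol III gene next on that side, had 0.01, 0.03 and 0.19. Behind SNR53, the next highest after 120 min was SNR48, with 0.86, and the lowest were SNR42 with -1.03 and SNR190 with -0.715. In untreated cells the highest were SNR53 and SNR66, at 0.66 and 0.52, and the lowest SNR71 and SNR64, at -0.39 and -0.37. After 30 min the highest were SNR54 and SNR53, at 0.51 and 0.45, and the lowest SNR13 and SNR7-S, at -0.78 and -0.72. Among the 36 without an adjoining Pol III gene the highest score was 0.86 after 120 min, which SCR1, RPR1 and SNR6 exceeded and which SNR52 and the 5S features did not.

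The features most like each of the 7 were taken as those with the smallest Euclidean distance over the 3 centred scores. For RPR1 they were tK(CUU)F, tE(UUC)E2 and tH(GUG)G1, at distances of 0.07, 0.09 and 0.11. For SCR1 they were tI(AAU)N1, tF(GAA)H2 and tM(CAU)J2, at 0.14, 0.18 and 0.18. All 6 are tRNA-named. SNR6 had no feature as close, with INP2 at 0.23, tR(CCG)L at 0.32 and VAC8 at 0.32, and both INP2 and VAC8 have a Pol III gene next at higher coordinates. For SNR52 they were MRPL8, RRN3 and ARP8, at 0.04 to 0.09, none with a Pol III gene next. For RDN5-1 they were TIR1, EFM1 and AZR1, for RDN5-2 TPP1, RAX1 and HST3, and for RDN5-3 FIT2, PAU3 and MUS81. Of these 9, TIR1 alone has a Pol III gene next, and their distances ran from 0.03 to 0.09. Points near the bulk of the table have many close features, so these distances do not compare between high and low members.

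Features named for the proteins that make or bind these RNAs gave the setting of the rest of the pathway. From untreated cells to 120 min 0.892% of all features passed the upper limit and 2.23% the lower one. In lists as short as those below, a count of 0 is close to such shares. Of 10 genes for TFIIIA, TFIIIB and TFIIIC subunits 9 had a feature, and from untreated cells to 120 min 0 passed either limit. Their median difference was -0.34, with TFC3 and TFC4 of TFIIIC at -0.76 and -0.82 and TFC6 at 0.40. All 11 genes listed for Maf1 and for subunits specific to Pol III had a feature, and 0 passed either limit after 120 min, with a median of 0.21. Subunits shared with other polymerases were not listed. The highest was RPC17 at 0.84, which has a Pol III gene next at higher coordinates. RPC37 at 0.74 and RPC53 at 0.68 followed, and neither has a Pol III gene next. After 30 min RPC53 passed the upper limit, from a centred score of -1.12 to 0.13, and 0 passed the lower one. Of all features 1.67% passed that upper limit. Of the genes for proteins in the particles of the 7 RNAs, 8 of 9 for RNase P, all 6 for the signal recognition particle, 7 of 9 for U6, 3 of 4 for box C/D particles and all 5 for the 5S particle had a feature. None of these passed a limit for any of the 3 differences. Of all features 1.67% passed the upper and 1.66% the lower limit from untreated cells to 30 min. From 30 to 120 min the shares were 1.45% and 2.31%, so 0 is close to the background here too. The median differences of these lists from untreated cells to 120 min were 0.01, 0.12, -0.04, -0.02 and -0.01 in that order, beside 0.07 over all features. The 2 furthest were RPR2 of RNase P at 0.81 and PRP24, which binds U6, at -0.82.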

How the data were processed

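The authors deposited 1 column of scores for each condition. Per the labels, each is the mean of 3 replicate arrays after normalization to a gene list, whose members the labels do not name. Background correction, spot filters, array design and build are likewise not given in the labels. The deposited values lie near 0 with both signs, so they were called scores. There were 0 columns without a sample. Columns were centred on their medians, and differences, robust SDs and percentiles were computed with Python 3.11.15, numpy 2.4.6 and pandas 2.3.3, after a check on simulated data. With 1 averaged column per condition no test, interval or leave-one-out was possible, and the number of arrays limits the precision. Of 5806 ORF-named features 5525 matched the RefSeq table, and so did all 7 Pol III features.

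The features and lists were chosen with earlier results of these data known. Named genes were the 7, their nearest and second nearest ORF-named features, the 3 most alike, and the 2 highest and 2 lowest Pol II small RNA features per column. Others were named after their values were seen, and 1 that the rule names is not reported here. Alternatives were other centrings, scalings, limits and neighbours.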

Additional observations from a re-analysis of the deposited data

Results flagged for a closer look

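For 5 of the 7 features the difference from untreated cells had opposite signs after 30 min and after 120 min of rapamycin. SCR1 had -0.20 and then 1.46, and the 2 differences lay 1.66 apart. RPR1 had -0.12 and 1.37, which is 1.49 apart. The 5S features RDN5-1, RDN5-2 and RDN5-3 had -0.30, -0.15 and -0.08 and then 0.43, 0.26 and 0.21, so that they lay 0.73, 0.41 and 0.29 apart. The sign was negative and then positive at 62.9% of 245 tRNA-named features and at 21.6% of all 6277 features measured in every condition. The 5S features count as 1 source, and all 5 of the differences after 30 min were within the paired-feature gap of 0.43. Both differences use the same untreated column. Whether they differ was not tested, since each condition has 1 averaged column.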

How the results depend on the processing

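The levels and differences of the 7 features kept their sign under no centring, centring on ORF-named features away from Pol III genes, centring within chromosomes, equal spread and quantile normalization. The last 2 made the late values smaller: the difference from untreated cells to 120 min was 0.93 and 0.64 at SCR1, 0.83 and 0.52 at RPR1, and 1.37 and 1.19 at SNR6, and that from 30 to 120 min at SNR6 was 0.16 after quantile normalization. With the 5S features averaged to 1 value, the median of the set was 1.92 after 120 min and 1.37 for the difference from untreated cells, in place of 0.60 and 0.43. A limit of 2 robust SDs took in 1 feature in untreated cells in place of 0. After 120 min the count above the limit was 2 of 7 with 4 robust SDs and after quantile normalization, and 3 otherwise. With 2 neighbours on each side, the median of the feature minus its ORF-named neighbours was 0.084 in untreated cells and 0.055 after 120 min, in place of -0.31 and -0.48. Of RPR1, SNR6, SNR52 and the 5S features, signs also turned for SNR6 and RDN5-2 in untreated cells, at 0.12 and 0.08, and for RDN5-2 after 120 min, at 0.055. The cause was not tested. No paired analysis was possible because each condition has 1 averaged column, and leaving out replicates was not run for the same reason.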
